A study of Mus musculus with 4 samples.

Results

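Rab GTPases and the subunits of the TRAPP complexes were described here in double-positive (DP) T-lineage cells, which carry both CD4 and CD8, from normal mouse thymus and from Notch1-driven tumours. The members were chosen by gene symbol alone: all probe sets whose single platform symbol is Rab followed by a number and at most 1 letter, or Trappc followed by a number. No measured value entered that choice, although the family was taken up with earlier results of these arrays known, so the group is described by counts and no test of the group as a whole is given. The rule found 157 probe sets of 73 genes, 132 of them for 59 Rab genes and 25 for 14 TRAPP genes, among 34945 probe sets of 18193 genes with 1 symbol on the array.

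The arrays were 4 Affymetrix Mouse 430 2.0 chips, which measure RNA with probe sets placed mostly near the 3' end of transcripts. In the normal group were 2 arrays of DP cells from the thymus of wild-type C57BL/6 mice, and in the tumour group 2 arrays of DP cells from a peripheral tumour (thymoma) over-expressing Notch1-IC, the active intracellular part of Notch1, with the genotype given as T-ALL (T-cell acute lymphoblastic leukaemia) on the same wild-type background. One label field (sample type) names tumour cells for the normal pair too, but their titles, source and genotype do not, and these set the groups. The sources used here do not give age, the promoter that drives Notch1-IC or the number of animals. Tissue site and transformation cannot be told apart.

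Rab proteins are small GTPases that mark the membranes of one organelle and, in the GTP-bound state, recruit the motors, tethers and fusion factors that carry vesicles to the next. Guanine nucleotide exchange factors (GEFs) load them with GTP, GTPase-activating proteins (GAPs) end the signal, and a GDP dissociation inhibitor returns the prenylated protein to its membrane. TRAPP is a tethering complex and a GEF: a shared core is completed to TRAPPII or TRAPPIII, which in yeast activate the counterparts of Rab11 and Rab1. In T cells, Rab proteins of the early and recycling endosomes carry internalised T-cell receptor back to the surface, and Rab27a is required for release of cytotoxic granules.

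Promoters are shown first, for the pair of members with the largest differences and for members that carry 1 of 2 short motifs. They are the RefSeq windows of GRCm38.p6, from 250 bases before to 50 bases after an annotated start, read 5' to 3' on the gene's strand. Capitals mark CACGTG, the E-box bound by Myc among others, and TGGGAA, the core bound by RBPJ, the DNA-binding partner of Notch1-IC, on either strand. Rab6b and Rab34 have neither motif in these windows, and Rab34 has 2 annotated starts.
Rab6b (chr9:103111824-103112123, plus strand): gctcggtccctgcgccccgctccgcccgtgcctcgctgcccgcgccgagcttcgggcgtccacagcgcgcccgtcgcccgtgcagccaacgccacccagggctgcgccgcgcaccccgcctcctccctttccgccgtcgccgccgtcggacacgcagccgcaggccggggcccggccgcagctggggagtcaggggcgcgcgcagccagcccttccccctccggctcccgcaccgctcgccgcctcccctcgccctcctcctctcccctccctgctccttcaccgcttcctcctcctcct
Rab34, upstream start (chr11:78188177-78188476, plus strand): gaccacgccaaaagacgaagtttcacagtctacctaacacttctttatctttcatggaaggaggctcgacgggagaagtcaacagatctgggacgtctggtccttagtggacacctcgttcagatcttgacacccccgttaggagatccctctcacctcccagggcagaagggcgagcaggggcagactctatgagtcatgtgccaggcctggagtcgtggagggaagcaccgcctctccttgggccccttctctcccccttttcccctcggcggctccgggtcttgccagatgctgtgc
Rab34, downstream start (chr11:78188498-78188797, plus strand): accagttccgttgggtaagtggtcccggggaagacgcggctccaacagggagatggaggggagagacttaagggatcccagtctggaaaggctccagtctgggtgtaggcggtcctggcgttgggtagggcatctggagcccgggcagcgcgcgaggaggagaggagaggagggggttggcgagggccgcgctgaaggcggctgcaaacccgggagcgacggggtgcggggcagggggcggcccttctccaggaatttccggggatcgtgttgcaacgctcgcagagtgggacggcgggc
Rab33a (chrX:48519035-48519334, plus strand): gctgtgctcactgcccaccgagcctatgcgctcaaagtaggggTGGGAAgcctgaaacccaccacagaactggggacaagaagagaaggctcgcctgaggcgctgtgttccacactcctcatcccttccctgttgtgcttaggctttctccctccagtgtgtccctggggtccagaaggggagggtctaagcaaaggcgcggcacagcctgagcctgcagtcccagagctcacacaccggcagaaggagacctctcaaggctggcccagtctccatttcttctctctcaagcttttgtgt
Rab24 (chr13:55321931-55322230, minus strand): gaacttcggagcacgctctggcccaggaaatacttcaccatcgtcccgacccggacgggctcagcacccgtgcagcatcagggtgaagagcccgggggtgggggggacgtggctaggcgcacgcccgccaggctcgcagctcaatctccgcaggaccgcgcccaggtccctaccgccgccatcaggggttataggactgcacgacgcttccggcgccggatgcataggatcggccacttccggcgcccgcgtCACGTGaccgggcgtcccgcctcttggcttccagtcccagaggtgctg
Rab1a (chr11:20201162-20201461, plus strand): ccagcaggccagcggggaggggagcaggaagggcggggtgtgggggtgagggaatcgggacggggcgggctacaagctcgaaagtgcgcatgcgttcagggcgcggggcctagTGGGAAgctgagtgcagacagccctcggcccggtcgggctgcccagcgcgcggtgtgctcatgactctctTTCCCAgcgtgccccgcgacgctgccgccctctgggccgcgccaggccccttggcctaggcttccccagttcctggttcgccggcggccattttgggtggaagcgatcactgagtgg

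A promoter window was found for 58 of the 73 genes (70 windows in all). Searched on both strands, TGGGAA was in 18 of the 70 windows (25.7%) and in 25.6% of all 32851 windows of that length. CACGTG was in 8 of the 70 (11.4%) against 7.15% of all windows. The motifs did not overlap each other in the windows shown. Of the 16 genes with TGGGAA, 1 was called higher (Rab33a), 5 lower and 10 not called, and of the 8 with CACGTG, 1 was called higher, 2 lower and 5 not called. Among all 58 members with a window, 7 were called higher, 19 lower and 32 not called. A match describes the letters only.

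Most of the called differences within the family were modest decreases in the tumour cells, among them those of ER export, recycling, early endosome and TRAPP genes. Golgi genes (3 higher, 3 lower) and secretion genes (2 higher, 2 lower) were called equally often in both directions. A few members moved much further: Rab6b went from well above background to below it, Rab32 fell to near background, and Rab34 rose from below background. Read at the most intense probe set of each gene, 7 of the 73 genes were higher (9.59%) and 23 lower (31.5%) in the tumour arrays at an adjusted p below 0.05 (limma with a trended and robust variance prior, adjusted by Benjamini-Hochberg over 45037 probe sets). Over all 18193 genes the same rule called 16.3% higher and 11.7% lower, 28.0% in either direction. The median log2 fold change, tumour minus normal, was -0.16 over the 73 genes and 0.09 over all genes. On single probe sets, 51 of 157 were called (32.5%), against 24.8% of all probe sets with 1 symbol and 22.8% of all probe sets.

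These counts depend on the variance prior and on the scaling of the arrays. With limma's default prior and 1 probe set per gene, of the members only Rab34 (adjusted p = 0.0367) and Rab6b (adjusted p = 0.0387) passed, and with that prior over all probe sets 0 members passed, 21 having an unadjusted p below 0.05. When the arrays were scaled to their bacterial spike-in probe sets (BioB, BioC and BioD), whose log2 values were on average 0.60 higher on the tumour arrays, 1 member was higher (Rab34) and 43 lower, and the median of all genes moved from 0.09 to -0.51. The median of the members lay 0.24 below that of all genes under both scalings. Spike scaling shifts all genes of an array by the same amount, so this gap could not change.

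**Figure D1:**
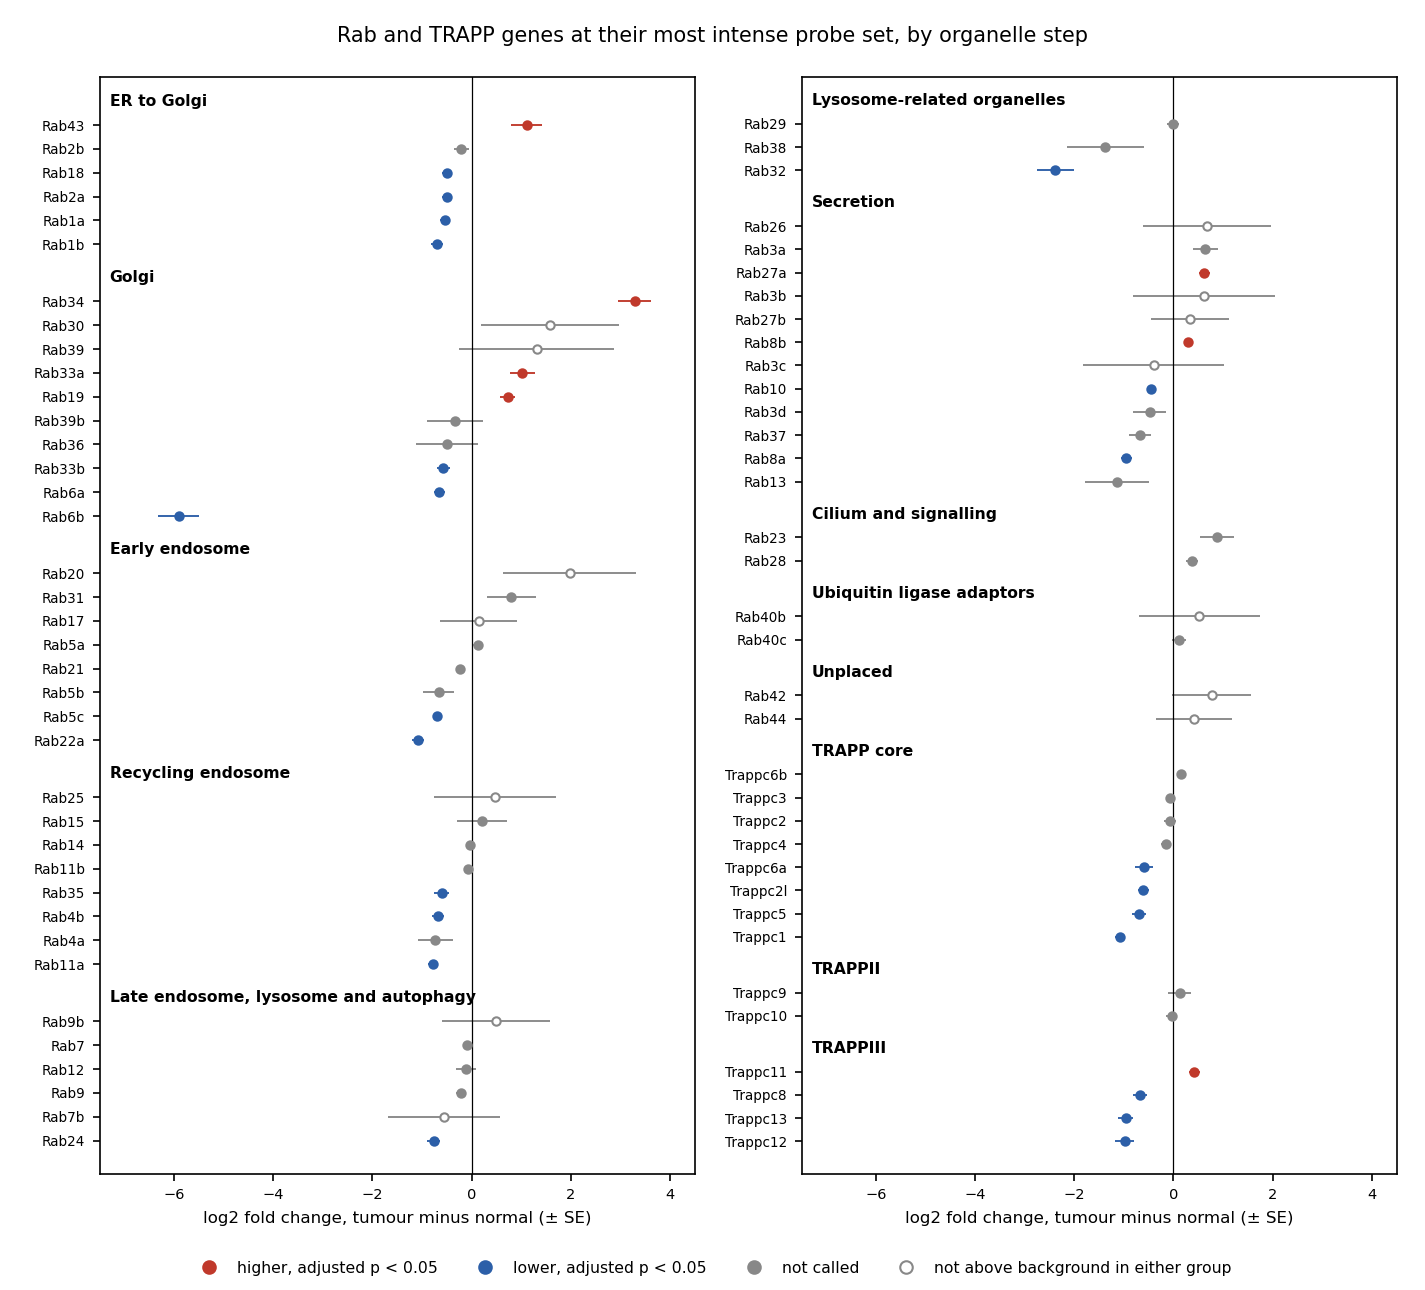
Log2 fold change (tumour minus normal, x axis) with its standard error for each of the 73 genes at its most intense probe set, grouped by organelle step, n = 2 arrays per group. Of the 23 genes called lower, Rab6b at -5.91 and Rab32 at -2.39 stand apart from the others, which lie between -1.08 and -0.45, and Rab34 at 3.29 is the red point farthest to the right. For Rab6b and Rab34 one group was below background, so these 2 points are fitted values and not measured sizes (at least 17.4-fold and 8.35-fold).

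Of the 73 genes, 59 were above the background level on both arrays of at least 1 group, and all 30 called genes were among these. Over all 18193 genes, 11023 met that rule, and they held 5067 of the 5095 called genes (2951 higher and 2116 lower). The shares of called genes given above thus also depend on how many genes were above background. The background level of an array, its highest value among 27 bacterial control probe sets without spike, was 12.3 to 17.8 intensity units. On all 4 arrays 9 genes were at or below it: Rab3b, Rab3c, Rab20, Rab25, Rab26, Rab27b, Rab30, Rab39 and Rab40b. Rab7b, Rab9b, Rab17, Rab42 and Rab44 were above it on some arrays but not on both arrays of any group. For these 14 genes the arrays give no usable difference.

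The arrays as a whole differed between the groups in ways that bear on every gene. DP markers were above background on all 4 arrays for 11 of 11 measured genes, with 9 lower and 1 higher in the tumour. Their summed intensity was 60038 to 65622 in normal and 21884 to 22768 in tumour arrays. The median log2 fold change of these markers was -1.56, and 8 of them were called at least 2-fold lower. Notch1 was at 1104 and 1098 in normal and 7155 and 6417 in tumour arrays. The summed intensity of 13 macrophage and monocyte markers was 121 to 162 in normal and 2213 to 2398 in tumour arrays (9 higher, 0 lower), that of 10 neutrophil markers 200 to 262 and 2169 to 2215 (7 higher, 0 lower), and that of 6 NK cell markers 1144 to 1176 and 5424 to 5439 (3 higher, 0 lower). The sums were 62.3 to 82.5 and 129 to 160 for 7 dendritic cell markers (1 higher, 0 lower), 336 to 371 and 111 to 139 for 5 B cell markers (0 higher, 1 lower), 12.5 to 21.7 and 95.3 to 135 for 3 erythroid markers (1 higher, 0 lower), 57.7 to 77.6 and 102 to 149 for 3 platelet markers (1 higher, 0 lower), and 374 to 461 and 328 to 341 for 9 stromal, epithelial and endothelial markers (1 higher, 2 lower). None of these markers was listed at 0, but many were not above background. Both normal arrays were above it for 3 of 13 macrophage, 3 of 10 neutrophil, 4 of 6 NK cell and 2 of 7 dendritic cell markers. The same held for 2 of 5 B cell, 0 of 3 erythroid, 1 of 3 platelet and 3 of 9 stromal, epithelial and endothelial markers. For both tumour arrays these counts were, in the same order, 11, 9, 4, 1, 2, 2, 2 and 4. Signal at the 3' end over that at the 5' end, a sign of RNA integrity and of labelling, was 1.20 to 1.28 in normal and 2.46 to 2.53 in tumour arrays for beta-actin, and 0.897 to 0.912 and 1.84 to 1.85 for Gapdh. The part of other cells and of RNA quality in the results below was not tested. In bulk RNA, fewer cells of a type and less RNA per cell cannot be told apart, and p-values here measure only the spread between arrays that no label ties to separate animals.

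The first step, from the ER to the Golgi, held 6 genes, of which 4 fell and 1 rose. Counts for this and the later steps stand beside 16.3% higher and 11.7% lower over all genes (28.0% in either direction). Rab1a (chromosome 11), which with its paralogue directs vesicles from the ER to the Golgi, was at 2117 and 2459 in normal and 1461 and 1718 in tumour arrays, a log2 fold change of -0.53 ± 0.10 (mean ± SE from limma, 2 arrays a group, adjusted p = 0.0041). Rab1b (chromosome 19) was at 452 and 410 in normal and 269 and 261 in tumour arrays, 1.62-fold lower (adjusted p = 0.00201). The groups did not overlap for either paralogue. Here and below, such separation was common: of all 18193 genes, 6123 had both tumour arrays above both normal arrays and 4799 had them below. Rab2a (chromosome 4), of the intermediate compartment between ER and Golgi, fell by 0.49 ± 0.10 (adjusted p = 0.00465), and Rab18, of the ER and lipid droplets, fell by 0.49 ± 0.10 (adjusted p = 0.00658).

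Rab43, a Rab of the ER and Golgi, was at 31.2 and 55.8 in normal and 89.1 and 91.2 in tumour arrays, a rise of 1.11 ± 0.31 (adjusted p = 0.0289). Its other 2 probe sets were not called, one at -0.54 ± 0.33 and one with both tumour arrays below background, and the mean of all 3 gave -0.62. Of the 7 probe sets of Rab2a only 1 was called, and the second most intense stood at 0.06 ± 0.10 (adjusted p = 0.721). The mean of the 7 gave -0.29 (adjusted p = 0.583). Rab2b was not called at its most intense probe set (-0.21 ± 0.16, adjusted p = 0.436), whereas 2 of its other 4 probe sets were called lower, at -1.03 and -1.22. Calls of Rab1a and Rab2a ended without normal replicate 2 (adjusted p = 0.0561 and 0.0546) or without tumour replicate 1 (0.0767 and 0.0790), and those of Rab18 and Rab43 without normal replicate 1 (0.0639 and 0.181), tumour replicate 1 (0.0566 and 0.123) or tumour replicate 2 (0.0848 and 0.139).

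The Golgi held 10 genes and the largest differences of the family, with 3 higher and 3 lower. Rab6b (chromosome 9), the paralogue of Rab6a that is known mainly from brain, was at 257 and 280 in the normal arrays and at 3.15 and 6.32 in the tumour arrays. Both tumour arrays were below background, so the gene was at least 17.4-fold lower in the tumour cells (adjusted p = 6.88e-06). On its other 3 probe sets 2 were called, at -2.69 ± 0.41 and -4.01 ± 0.75, and the third, above background on 1 array, was not. Each of the called pair lay above background on 1 of the 2 tumour arrays.

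Rab6a (chromosome 7), which drives retrograde traffic through and to the Golgi, was at 806 and 954 in normal and 543 and 576 in tumour arrays, 1.57-fold lower (adjusted p = 0.00185). A further probe set of Rab6a fell by 0.99 ± 0.11, and the third differed by 0.38 ± 0.23 (adjusted p = 0.311), so that the mean of the 3 was not called (adjusted p = 0.0843). Both Rab6 genes were thus lower at their most intense probe sets, and the size of the difference between their changes was not tested.

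Rab34 (chromosome 11), a Rab of the Golgi and of macropinosomes that also positions lysosomes, showed the opposite pattern to Rab6b. Its most intense probe set was at 13.8 and 10.3 in normal and 113 and 121 in tumour arrays, and its other probe set at 5.98 and 3.17 and at 138 and 152. Both normal arrays were below background on both probe sets, giving at least 8.35-fold and at least 10.4-fold higher levels in the tumour arrays (adjusted p = 7.95e-05 for the first). Rab34 kept its direction and its call under all scalings tried. The summed macrophage, neutrophil and NK cell markers were higher in the same arrays, as given above, and their part in this result was not tested.

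Of the Rab33 pair, both known from the Golgi, one rose and one fell. Rab33a (chromosome X) was at 42.4 and 38.9 in normal and 77.3 and 88.7 in tumour arrays, a rise of 1.03 ± 0.26 (adjusted p = 0.0163) that was not called under spike scaling (0.43, adjusted p = 0.269). Rab33b (chromosome 3), which also acts in autophagy, was at 713 and 588 and at 479 and 399, a fall of 0.57 ± 0.13 (adjusted p = 0.0121). The groups did not overlap for either gene. Rab19 (chromosome 6) was at 139 and 160 in normal and 246 and 249 in tumour arrays, 1.65-fold higher (adjusted p = 0.00586), and was at 0.13 under spike scaling (adjusted p = 0.612). Calls of Rab33a ended without either normal array (adjusted p = 0.0705 and 0.0943) or tumour replicate 2 (0.0874), and those of Rab33b and Rab19 without normal replicate 1 (0.135 and 0.0545) or tumour replicate 2 (0.133 and 0.0515). Rab36 and Rab39b were not called.

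**Figure D2:**
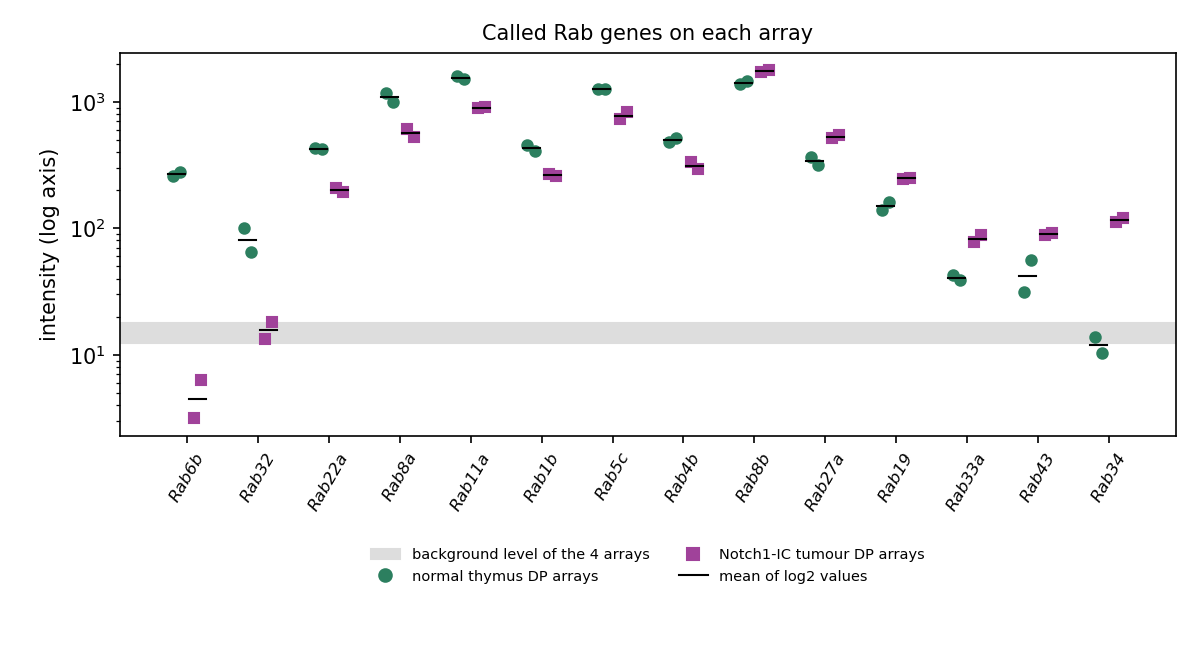
Intensity on each of the 4 arrays (y axis, log scale) of 14 called Rab genes, with black bars at the mean of the log2 values and the range of the arrays' background levels in grey. Rab6b in tumour and Rab34 in normal arrays lie below their arrays' background levels, and the 2 groups do not overlap for any of the 14 genes. These genes were picked from the called ones, so their separation adds nothing to the calls. Of all 18193 genes, 6123 had both tumour arrays above both normal arrays and 4799 had them below.

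Of 8 early endosome genes, 2 were called lower (25%) and 0 higher, and 28.0% of all genes were called in either direction. Rab5c (chromosome 11), one of 3 Rab5 proteins that drive fusion of early endosomes, was at 1249 and 1252 in normal and 731 and 824 in tumour arrays, 1.61-fold lower (adjusted p = 0.000459). Rab5a did not pass and its groups overlapped, at 1417 and 1286 in normal and 1318 and 1654 in tumour arrays (0.13 ± 0.11, adjusted p = 0.501). Rab5b had values of -0.66 ± 0.31 at its most intense probe set (adjusted p = 0.182) and -1.08 ± 0.34 at its other one, which was called. Rab22a (chromosome 2), another early endosome Rab, was at 428 and 423 in normal and 209 and 195 in tumour arrays, 2.11-fold lower (adjusted p = 0.000162). A second of its 4 probe sets fell by 1.26 ± 0.20, while the other pair were not called, and without probe sets that may bind several transcripts Rab22a was at -0.24 (adjusted p = 0.290). Rab21, linked to integrin uptake, was at -0.24 ± 0.08 (adjusted p = 0.0654), and its dimmer probe set fell by 0.82 ± 0.18. Rab31, which is known from macrophages among other cells, was at 14.0 and 14.6 in normal and 25.9 and 24.2 in tumour arrays and was not called (adjusted p = 0.326).

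Of 8 recycling endosome genes, 3 were called lower (37.5%) and 0 higher, and 28.0% of all genes were called in either direction. Rab11a (chromosome 9), which returns cargo through the slow recycling route, was at 1587 and 1510 in normal and 884 and 911 in tumour arrays, a fall of 0.79 ± 0.08 (adjusted p = 8.95e-05). Its paralogue Rab11b was at 709 and 698 and at 684 and 664, a difference of -0.06 ± 0.09 that did not pass (adjusted p = 0.722). Under spike scaling Rab11b was at -0.66 (adjusted p = 0.000402). The second Rab11a probe set stood at 0.07 ± 0.14 (adjusted p = 0.801), so the fall of Rab11a rests on 1 of its 2 probe sets, one that may bind several transcripts. Rab4b (chromosome 7), of the fast recycling route, was at 482 and 519 in normal and 332 and 291 in tumour arrays, 1.61-fold lower (adjusted p = 0.00233).

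Rab35 (chromosome 5), which also acts in fast recycling and at the immune synapse, was at 464 and 448 in normal and 350 and 259 in tumour arrays, a fall of 0.60 ± 0.15 (adjusted p = 0.0169). Its call ended without either normal array (adjusted p = 0.135 and 0.0987) or tumour replicate 2 (0.123). Rab4a had -0.73 ± 0.36 at its most intense probe set (adjusted p = 0.199) and was at least 2.32-fold lower at the other, where both tumour arrays were below background (adjusted p = 0.0236). Rab14, between Golgi and endosomes, shows how far the probe sets of 1 gene can part: its most intense one was at 1921 and 1807 in normal and 1880 and 1788 in tumour arrays (-0.02 ± 0.08), and the other 6 ranged from -1.23 to 0.20, with 3 called lower. The most intense Rab14 probe set was at -0.62 under spike scaling (adjusted p = 0.000116).

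Late endosome and lysosome genes were mostly not called at their most intense probe sets. Under spike scaling Rab7 was at -0.70 (adjusted p = 8.27e-05) and Rab9 at -0.81 (adjusted p = 0.000324), both lower. The values that follow are those of the main scaling. Rab7 (chromosome 6), the Rab of late endosomes and lysosomes, was at 1689 and 1564 in normal and 1563 and 1483 in tumour arrays (-0.09 ± 0.08, adjusted p = 0.491), and Rab9, which returns cargo to the trans-Golgi, was at -0.21 ± 0.10 (adjusted p = 0.197). Rab24 (chromosome 13), known from autophagy, was the 1 of 6 that was called: it was at 280 and 290 in normal and 167 and 169 in tumour arrays, 1.70-fold lower (adjusted p = 0.00246). Its promoter window, shown above, has CACGTG just after the annotated start.

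Rab32 (chromosome 10), of melanosomes, mitochondria and the phagosomes of macrophages, stood apart among the lysosome-related genes. It was at 101 and 65.4 in normal and 13.4 and 18.1 in tumour arrays, a fall of 2.39 ± 0.38 (adjusted p = 0.00121) with tumour replicate 1 below background. The call ended without normal replicate 1 (-2.07, adjusted p = 0.0558). The part of the cell type markers given above in this result was not tested. Its relative Rab38 was not called on either probe set, and Rab29 was at -0.01 ± 0.13 (adjusted p = 0.983). Under spike scaling Rab29 was at -0.61 (adjusted p = 0.00494).

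Genes of secretion and of traffic to the plasma membrane went both ways, with 2 of 12 higher and 2 lower. That is 33.3% called, against 28.0% of all genes. Rab8a (chromosome 8), which carries Golgi vesicles to the plasma membrane, was at 1181 and 995 in normal and 606 and 522 in tumour arrays, 1.93-fold lower (adjusted p = 0.000263), and with the mean of its 3 probe sets was at -0.67 (adjusted p = 0.312). Its paralogue Rab8b (chromosome 9) was at 1376 and 1453 and at 1710 and 1775, a rise of 0.30 ± 0.08 (adjusted p = 0.0184) that reversed to -0.30 under spike scaling (adjusted p = 0.020). The groups did not overlap for either of the Rab8 genes. The Rab8b call also ended without normal replicate 1 (adjusted p = 0.100), tumour replicate 1 (0.0986) or tumour replicate 2 (0.155), and with the mean of its 2 probe sets. Rab10 (chromosome 12), close to Rab8 in function, was lower on all 3 of its probe sets, by 0.45 ± 0.08, 0.33 ± 0.09 and 0.97 ± 0.11.

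Rab27a (chromosome 9), the Rab of cytotoxic granules, was at 368 and 317 in normal and 514 and 541 in tumour arrays, 1.54-fold higher (adjusted p = 0.0037). Its other 3 probe sets, all dim, were not called (-0.50 ± 0.38, -0.27 ± 0.52, and one above background on 1 array), the mean of the 4 was -0.42, and under spike scaling the value was 0.02 (adjusted p = 0.910). Without tumour replicate 2 the call ended (adjusted p = 0.0546). Of the NK cell markers given above, 3 of 6 were called higher in the same arrays, among them granzymes A and B (Gzma and Gzmb). The other 3 were not called, 1 of them at -2.34 with the tumour arrays below the normal ones. The part of the NK cell markers in this result was not tested. Rab27b was at or below background throughout. Among the granule Rabs Rab3a, Rab3d and Rab37, none was called at the most intense probe set, while a second probe set of Rab3a had both normal arrays below background and rose at least 3.45-fold, and a second one of Rab3d fell by 1.57 ± 0.37. Rab37 was at 116 and 97.5 in normal and 62.6 and 70.5 in tumour arrays (adjusted p = 0.0528).

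Outside these routes no Rab gene was called. The cilium-linked genes Rab23 and Rab28 had values of 0.89 ± 0.34 (adjusted p = 0.101) and 0.37 ± 0.13 (adjusted p = 0.0695), and the Rab28 value passed when dim probe sets were left out (adjusted p = 0.0377 to 0.0483). Rab40c, an adaptor of a ubiquitin ligase, was at 272 and 271 in normal and 268 and 321 in tumour arrays (adjusted p = 0.658).

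All 14 TRAPP genes were above background, and 7 were lower (50%) and 1 higher (7.14%), against 11.7% and 16.3% of all genes. Their median log2 fold change was -0.37, against -0.10 for the Rab genes and 0.09 for all genes. These medians depend on the choice of probe sets. With the mean of probe sets they were -0.17 for TRAPP and -0.29 for Rab genes. Without probe sets that may bind several transcripts they were -0.11 and -0.21. Among the 8 core genes 4 fell. Trappc1 (chromosome 11) was at 827 and 925 in normal and 406 and 425 in tumour arrays, 2.10-fold lower (adjusted p = 5.6e-05). Trappc2l (chromosome 8) was at 926 and 783 and at 572 and 546, 1.52-fold lower (adjusted p = 0.00263). Neither showed any overlap between groups, and both calls held with any 1 array left out.

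Trappc5 fell by 0.70 ± 0.15 (adjusted p = 0.00663) at its most intense probe set and was at -0.11 ± 0.16 at the other. Trappc6a, at 281 and 200 in normal and 165 and 150 in tumour arrays, fell by 0.59 ± 0.18 (adjusted p = 0.0475), just inside the threshold. With the mean of its 2 probe sets Trappc6a was at -0.27 and not called (adjusted p = 0.649). Calls of Trappc5 and Trappc6a ended without normal replicate 1 (adjusted p = 0.0749 and 0.344) or tumour replicate 1 (0.0502 and 0.127), and that of Trappc6a also without tumour replicate 2 (0.221). The other 4 core genes were close to equal in the groups. Trappc3 was at 685 and 688 in normal and 672 and 645 in tumour arrays (-0.06 ± 0.09, adjusted p = 0.733), Trappc4 at -0.16 ± 0.10 (adjusted p = 0.366), Trappc2 at -0.08 ± 0.12 (adjusted p = 0.751) and Trappc6b at 0.15 ± 0.09 (adjusted p = 0.287). Under spike scaling these 4 were lower too, at -0.45 to -0.76.

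The subunits that tell the complexes apart differed in their calls. Of the TRAPPIII genes, which complete the core for ER-Golgi traffic and autophagy, 3 fell and 1 rose. Trappc13 (chromosome 13) was at 256 and 281 in normal and 147 and 129 in tumour arrays, 1.95-fold lower (adjusted p = 0.00121), with 1 of its other 2 probe sets lower (-1.10 ± 0.31) and the other at 0.03 ± 0.19. Trappc12 (chromosome 12) was at 172 and 156 and at 92.8 and 74.3, 1.98-fold lower (adjusted p = 0.0047), and Trappc8 at 620 and 652 and at 351 and 452, 1.60-fold lower (adjusted p = 0.00459). Trappc11 (chromosome 8) was at 359 and 380 in normal and 500.7 and 487 in tumour arrays, a rise of 0.42 ± 0.11 (adjusted p = 0.0191) that was -0.18 under spike scaling (adjusted p = 0.275). The Trappc11 call ended whichever array was left out (adjusted p = 0.0561 to 0.115), that of Trappc12 without normal replicate 1 (0.0710) and that of Trappc8 without normal replicate 2 (0.0592). With the mean of its 4 probe sets Trappc12 was at 0.35 (adjusted p = 0.733).

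Neither TRAPPII gene was called. Trappc10 was at 648 and 588 in normal and 619 and 584 in tumour arrays (-0.04 ± 0.10, adjusted p = 0.853), with overlapping groups. Trappc9 was at 95.2 and 114 and at 139 and 93.0 (0.13 ± 0.24, adjusted p = 0.781), while a dimmer probe set of Trappc9 fell by 1.77 ± 0.54 (adjusted p = 0.0417). Whether TRAPPII and TRAPPIII genes differ in their change was not tested.

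**Figure D3:**
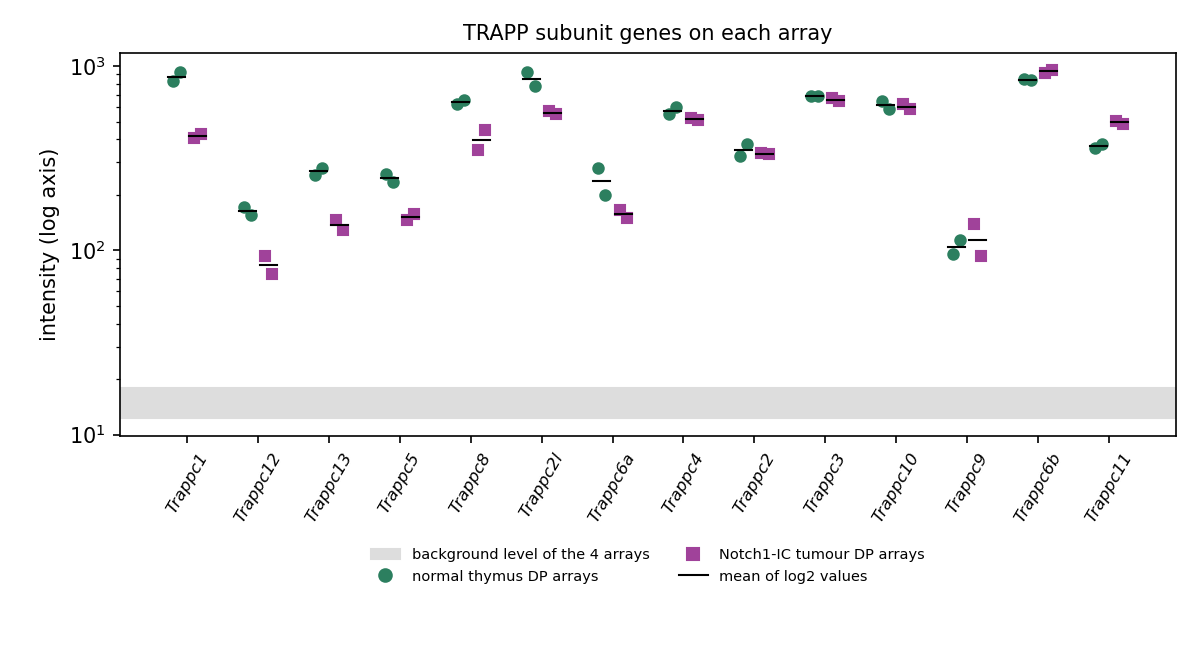
Intensity on each array (y axis, log scale) of the 14 TRAPP genes, ordered by log2 fold change from Trappc1 on the left to Trappc11 on the right, with black bars at the mean of the log2 values. All values lie above the grey range of background levels. The tumour squares lie below the normal circles for 9 genes: the 7 called lower, and Trappc3 and Trappc4, which were not called. The separation of the called genes adds nothing to their calls. Of all 18193 genes, 4799 had both tumour arrays below both normal arrays.

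Different probe sets of a gene often gave different sizes. Of the 45 members measured by more than 1 probe set, 0 had calls in opposite directions, 3 (Rab10, Rab18 and Rab34) had all of theirs called the same way, 23 had some called in 1 direction and 19 had none called. The ratios of 3' to 5' controls given above differed between the groups in the same arrays. Positions of the probe sets on the transcripts were not used here, and the part of that ratio in the spread among probe sets was not tested.

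**Figure D4:**
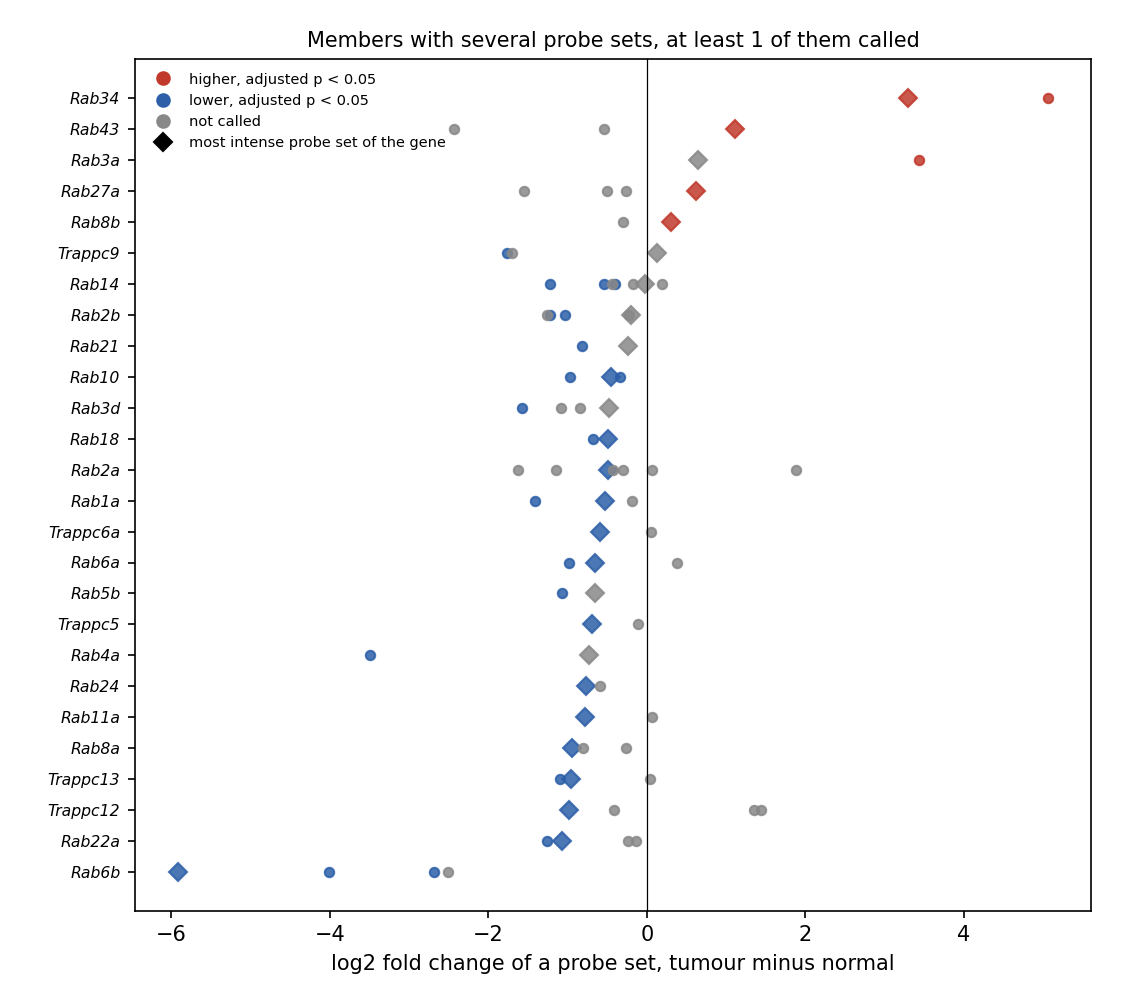
Log2 fold change (x axis) of all 82 probe sets of the 26 members with several probe sets and at least 1 call, with diamonds for the most intense probe set. Points of 1 gene spread widely for Rab14, Rab2a and Rab27a, and red and blue points never share a gene.

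The other genes of the Rab cycle were taken from lists drawn up by function and not by how they moved. Of 7 genes of prenylation, delivery and extraction, 4 fell and 1 rose (median log2 fold change -0.44). Rabac1, a prenylated Rab acceptor of the Golgi, was at 1483 and 1393 in normal and 566 and 469 in tumour arrays, 2.79-fold lower (adjusted p = 1.0e-05), and Rabif, a chaperone of nucleotide-free Rabs, was 1.94-fold lower (adjusted p = 0.000221), but stood at -0.28 (adjusted p = 0.652) once probe sets shared by several transcripts were left out. Of 32 GEF genes, 5 rose and 6 fell (median 0.12). Sbf2, a DENN-domain protein, was at 75.7 and 65.3 in normal and 614 and 627 in tumour arrays, 8.83-fold higher (adjusted p = 6.61e-07), and Dennd4a, a GEF for Rab10, was 4.53-fold higher (adjusted p = 2.39e-05). With the mean of the probe sets of each gene, the log2 fold change went from 3.14 to 2.37 for Sbf2 (adjusted p = 0.0127). For Dennd4a it went from 2.18 to 1.30 (adjusted p = 0.0175). Of 35 GAP genes, 5 rose and 5 fell (median 0.17).

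Evi5, a TBC-domain protein that binds Rab11, was at 32.7 and 27.4 in normal and 391 and 400 in tumour arrays, 13.2-fold higher (adjusted p = 1.15e-06). Tbc1d10c, a GAP that also restrains calcineurin in T cells, was at 1365 and 1218 and at 432 and 458, 2.90-fold lower (adjusted p = 4.57e-06). Of 39 effectors, 9 rose and 5 fell (median 0.29). Rab11fip2, which links Rab11 to myosin V, was at 60 and 81.7 in normal and 581 and 677 in tumour arrays, 8.96-fold higher (adjusted p = 2.08e-06), and Myo5a, the myosin that carries Rab27a and Rab11 vesicles, was 4.11-fold higher (adjusted p = 0.000217). With the mean of the probe sets of each gene, the log2 fold change went from 3.16 to 1.52 for Rab11fip2 (adjusted p = 0.0136). For Myo5a it went from 2.04 to 1.22 (adjusted p = 0.0155). Evi5 and Rab11fip2 were higher on the arrays on which the most intense Rab11a probe set was lower, as any gene called higher would be. The second Rab11a probe set and Rab11b were not called, and a link between these genes was not tested.

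Of 45 genes of other tethers, among them golgins and the COG, exocyst, GARP, HOPS and CORVET complexes, 11 rose and 6 fell (median 0.14). Exoc6 of the exocyst was 2.64-fold higher at its most intense probe set (adjusted p = 0.000146) but at -0.39 (adjusted p = 0.374) with the mean of its probe sets, and the golgin Golga2, to which Rab1 binds, was 2.16-fold higher (adjusted p = 0.000166). The shares called in these lists stand beside 16.3% higher and 11.7% lower over all genes, and no list was tested against another.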

How the data were processed

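RNA of DP cells was labelled by 3' in vitro transcription from 100 ng and hybridized to Mouse 430 2.0 arrays (labels' protocols). What the authors deposited is a linear intensity for each probe set in each sample, with nearly the same distribution on all arrays. The processing notes of the submitters name RMA without a version. The lowest value of an array was 0.08 to 0.17, so which steps RMA stands for is not settled, and low intensities and their folds are the least certain. Such normalization hides a shift common to all genes. Here log2 was taken with no offset and no filter, and 64 control probe sets were left out.

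All 45037 probe sets were fitted at once with limma 3.58.1 in R 4.3.3 (lmFit and eBayes, trend and robust prior, no covariate) and adjusted by Benjamini-Hochberg at 0.05. The trended prior was used because replicates spread more at low signal: their median log2 SD was 1.31 over the dimmest quartile of probe sets and 0.102 over the brightest. The script was tested on simulated data. The fit left 2 residual degrees of freedom, to which the prior brought 7.27 (median). The number of arrays limits the precision.

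Probe sets were named from GEO's platform annotation: 34945 had 1 symbol, 932 several (not used) and 9160 none. All 73 member genes matched RefSeq through Entrez numbers, with 0 symbols changed. A gene was read at its probe set with the highest mean log2. Where both arrays of a group were at or below background, a fold is "at least": the other group's mean over the dim group's mean, each array raised to its background.

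Named were, per organelle step, up to 5 called genes whose higher group averaged 7 or more (log2) and the most intense gene, then all TRAPP genes and lettered paralogues. Rab32, Rab34 and Rab43 are dimmer and, like uncalled genes named beside them, were named after their values were seen. Of pathway lists up to 2 called genes at that level were named. Members, lists and the prior were chosen with earlier results of these data known. Alternatives were other priors, scalings, filters, thresholds and probe set choices, a replicate block, and leaving out each array.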

Additional observations from a re-analysis of the deposited data

How the results depend on the processing

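Called members are given here as Rab higher, Rab lower, TRAPP higher and TRAPP lower, which were 6, 16, 1 and 7. With limma's default prior they were 0, 0, 0 and 0 (21 members at an unadjusted p below 0.05), and with that prior and 1 probe set per gene 1, 1, 0 and 0. Spike scaling gave 1, 31, 0 and 12. A threshold of 0.01 gave 3, 14, 0 and 6, a minimum of 2-fold 3, 3, 0 and 1, the mean of probe sets 4, 17, 1 and 4, and leaving out probe sets that may bind several transcripts 7, 15, 0 and 5. Leaving out 1 array gave 2 to 5, 12 to 13, 0 to 0 and 4 to 6. The lowest counts of Rab genes higher (2) came without normal replicate 1 and without tumour replicate 2, and the lowest of TRAPP lower (4) without normal replicate 1. Of the 30 called members, 14 kept the call with any array left out: 11 Rab and 3 TRAPP, of which only Rab34 is higher. Same-numbered arrays deviated together at r = 0.25 over probe sets with a mean log2 of at least 7 and r = 0.013 over all. With the replicate number as a block the counts were 7, 18, 1 and 7. Median subtraction, renewed quantile normalization, filters on dim probe sets and 1 probe set per gene with the trended prior kept each count within 1.5 times.

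All 73 members and the 10 pathway genes named above were refitted under each setting. Signs turned under spike scaling for Rab28 (-0.23), Rab17 (-0.46), Rab5a (-0.47), Rab9b (-0.11), Rab15 (-0.39), Rab25 (-0.13), Rab27b (-0.27), Rab8b (-0.30), Rab40b (-0.078), Rab40c (-0.49), Rab44 (-0.19), Trappc6b (-0.45), Trappc9 (-0.47) and Trappc11 (-0.18). With the mean of probe sets they turned for Rab17 (-0.29), Rab31 (-0.034), Rab43 (-0.62), Rab36 (0.65), Rab39b (0.79), Rab27a (-0.42), Rab40b (-0.054), Rab40c (-0.34), Trappc4 (0.11), Trappc9 (-1.11), Trappc12 (0.35) and Exoc6 (-0.39). Without probe sets that may bind several transcripts they turned for Rab38 (1.31), Rab11a (0.071), Rab27b (-2.70), Trappc4 (0.38) and Trappc6b (-0.091). With 1 array left out, values that crossed 0 ranged from -0.067 to 0.021 for Rab14, -0.050 to 0.038 for Rab29, -0.021 to 0.24 for Rab40c, -0.22 to 1.04 for Rab44, -0.034 to 0.29 for Rab5a, -2.24 to 1.13 for Rab7b, -0.11 to 0.031 for Trappc10, -0.18 to 0.031 for Trappc2, -0.17 to 0.42 for Trappc9, -0.29 to 0.083 for Rab12, -0.34 to 0.76 for Rab15, -0.57 to 0.85 for Rab17, -0.32 to 1.27 for Rab25, -0.23 to 3.39 for Rab30, -0.53 to 3.15 for Rab39, -0.90 to 0.23 for Rab39b, -0.50 to 1.74 for Rab3b, -1.45 to 0.65 for Rab3c and -0.59 to 1.58 for Rab9b, none of them called. The causes were not tested. Low signal over background limits the 14 members not above it.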
